A study of Mus musculus with 8 samples.

Results

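Regulatory T cells (Treg) of the mouse kidney were taken as all cells that the authors' cell table assigns to the class Treg, which gave 981 of 77393 cells. Of these, 255 came from Control kidneys and 726 from kidneys after unilateral ureteric obstruction (UUO), a model of kidney injury in which the outflow of urine is blocked. The series holds whole kidney of C57BL/6 mice aged 7 weeks, with 6 samples titled Control and 2 titled UUO, profiled with 10x Genomics single-cell 3′ chemistry. The labels carry the same treatment text for every sample (ligation on the left side, death at day 7), so the groups rest on the titles and the disease label. The labels do not say what was done to the Control animals, nor whether each sample is its own animal. The p-values below therefore cover the spread among these samples, and part of that spread may be technical.

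Regulatory T cells are CD4 lineage lymphocytes that restrain other immune cells. They are defined by the transcription factor Foxp3 and carry Ctla4, an inhibitory receptor that competes for co-stimulation, and Il2ra, the chain that gives the interleukin-2 receptor its high affinity. In the kidney they are known for limiting inflammation after injury. None of the 3 markers could be checked, because gene-level values are not analysed here, so the name is the authors' own and the cells are described by their numbers, transcript content, mitochondrial share and place on the authors' UMAP. Fewer cells of another type raise a share in the same way as more Treg do, and a share cannot tell these apart.

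Library sizes ran from 2263 to 18393 cells, and the libraries over 10000 cells were Controls 5 and 6 and both UUO samples. Controls 3 and 4 stood apart from the other Control samples in their immune cells. Their numbers of cells per class differed from each other by little more than sampling noise (chi-square p = 0.0509), whereas each of the other 14 Control pairs differed (p of at most 4.09e-41). They were therefore counted as 1 sample, which left n = 5 for Control against n = 2 for UUO. The main results that rest on them are also given without them. The chi-square test does not show that they are 1 sample, and pooling gives them less weight in the Control mean. A total of 3 barcodes occurred in Treg of more than 1 sample, and in none of these did the UMIs (unique transcript molecules) and genes match.

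Treg numbers were low in most Control kidneys and higher in both obstructed kidneys, with Controls 3 and 4 as the exception. Controls 1, 2, 5 and 6 held 11, 5, 37 and 33 Treg, which made up 0.306%, 0.0777%, 0.229% and 0.242% of their cells. Controls 3 and 4 held 50 and 119 Treg, or 2.21% (1.64 to 2.90) and 3.01% (2.502 to 3.594) of their cells (exact 95% binomial intervals, counting error only). UUO samples 1 and 2 held 327 and 399 Treg, or 1.78% (1.59 to 1.98) and 3.09% (2.80 to 3.40). Both UUO samples thus lay far above 4 of the 5 Control samples as counted, and the pooled Controls 3 and 4, at 2.72%, lay between them.

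The difference in Treg share of all cells was 2.83 on the log2 odds scale (95% interval 1.17 to 4.50) and passed limma's test over all 28 classes (adjusted p 0.00429), where 6 classes, or 21.4%, were called higher in UUO. Treg was, however, the class with the highest residual SD of the 28. Its own SD was 1.68 log2 units, and the fit used 1.01, a spread shared by all classes. The two-sided exact permutation test, which uses the spread of Treg alone, gave p = 0.190 with n = 5 and 2, where the smallest p it can give is 0.0476. With Controls 3 and 4 as separate samples the difference was 2.35 (limma adjusted p 0.0411). The Control mean was then 1.01% ± 1.27 (SD, n = 6). Without Controls 3 and 4 the mean share was 0.213% ± 0.0965 (SD, n = 4) in Control against 2.43% ± 0.925 (SD, n = 2) in UUO. The difference in means was then 11.4-fold, in place of 3.40-fold with them (limma log2 odds difference 3.59, adjusted p 5.11e-05, among 32.1% of classes called higher). The samples left out held the highest Control shares. With n = 4 against 2 an exact permutation test cannot reach 0.05.

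**Figure D1:**
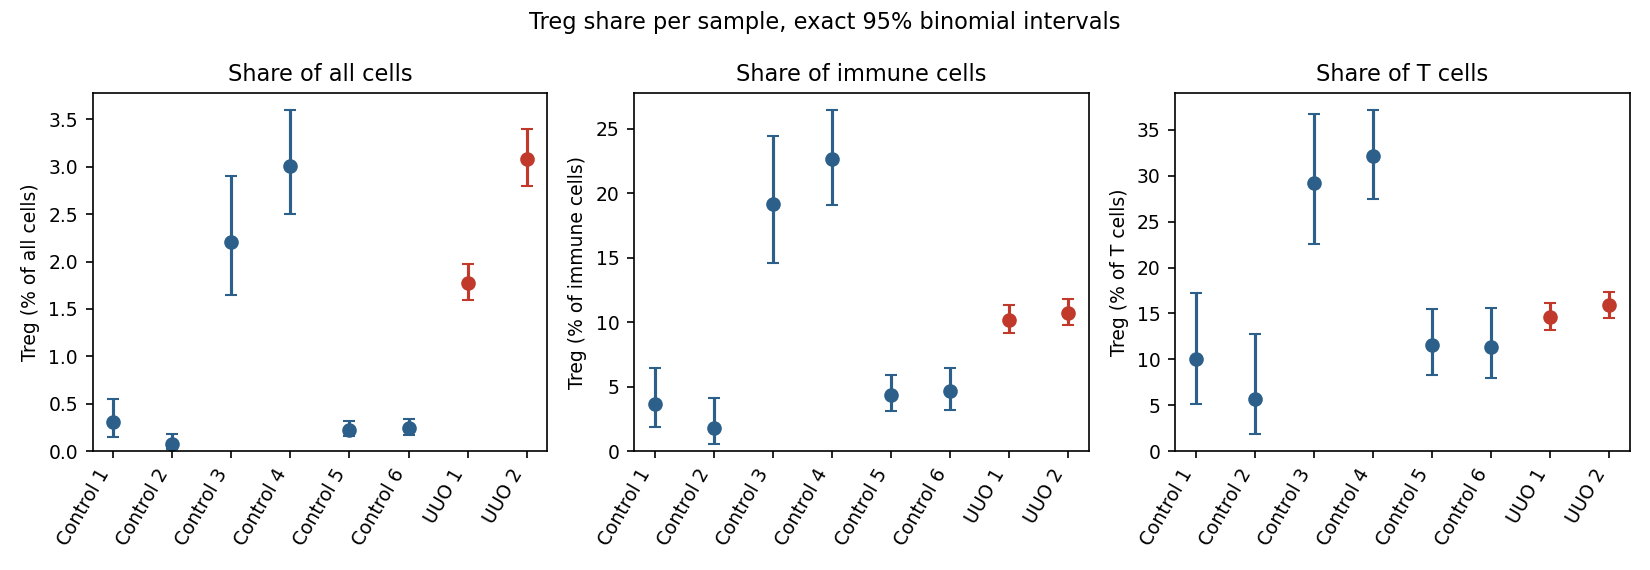
Treg as a percentage of all cells (left), of immune cells (middle) and of T cells (right) in each sample; points are the samples, blue for Control and red for UUO, and bars are exact 95% binomial intervals that cover counting error only. Controls 3 and 4 lie at 2.21% and 3.01% of all cells, in the range of the UUO samples at 1.78% and 3.09%, and above them as a share of immune and of T cells.

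The Treg class was not uniform, and its make-up differed between samples. Most Treg had a low share of mitochondrial UMIs, with 748 of the 981 cells under 6%, but 149 cells lay at or above 20% and 84 between these values. At a dividing line of 10%, 787 Treg fell below and 194 (19.8%) at or above it, and the line crossed a thin part of the range, with 18 cells between 8% and 10% and 11 between 10% and 12%. A high mitochondrial share is widely used as a sign of damaged or stressed cells, though it also varies with cell type.

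In Controls 5 and 6 the high-mitochondrial cells were the majority of the class: 27 of 37 Treg (73.0%, exact 95% interval 55.9 to 86.2) and 26 of 33 (78.8%, 61.1 to 91.0) had at least 10% mitochondrial UMIs. In Controls 3 and 4 these were 1 of 50 (2.0%) and 5 of 119 (4.20%), and in Controls 1 and 2 they were 3 of 11 and 2 of 5. UUO 1 held 33 of 327 (10.1%, 7.05 to 13.9) and UUO 2 held 97 of 399 (24.3%, 20.2 to 28.8). The share was therefore high in Controls 5 and 6, low in Controls 3 and 4, and between these in both UUO samples. Group means were 44.5% ± 31.5 (SD, n = 5) in Control and 17.2% ± 10.1 (SD, n = 2) in UUO, which overlapped (exact permutation p = 0.429 on log2 odds, smallest possible 0.0476). Over all cells of a library, most of them tubular, this share was 62.1% and 72.7% in Controls 5 and 6, 63.0% and 56.0% in UUO 1 and UUO 2, and 45.0% to 51.4% in Controls 1 to 4. The part of these library levels in the Treg values was not tested.

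Sample medians show the same split. The median Treg held 30.3% mitochondrial UMIs in Control 5 and 24.6% in Control 6, against 1.78% in Control 3, 2.10% in Control 4, 2.36% in UUO 1 and 3.46% in UUO 2. The CD4 T cells of Controls 5 and 6, conventional helper cells from the same libraries, had medians of 4.63% and 5.24%. With the 3 Control samples that hold at least 20 Treg, the difference in medians was -16.1 percentage points in UUO and did not pass limma (adjusted p 0.887; 0% of 19 classes called, and 0 at an unadjusted p under 0.05). The outcome depended on Controls 3 and 4. Without them it was -24.5 points (95% interval -32.5 to -16.5, limma adjusted p 0.0419), and Treg was the 1 class of 19 (5.26%) called lower in mitochondrial share. For Treg that fit compared only Controls 5 and 6 with UUO 1 and UUO 2. With 2 samples a group an exact permutation test cannot go below 0.333. Controls 1 and 2 fell under the minimum of 20 Treg and did not enter. Their medians were 2.74% and 4.996%, so Control 1 lay between the UUO samples and Control 2 above both, far below Controls 5 and 6.

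Other T cell classes had lower shares in Controls 5 and 6, whereas some other immune classes of Control 5 had shares as high. Of the remaining T cells in Controls 5 and 6, 15.1% in each had at least 10% mitochondrial UMIs, and the highest class was NKT in Control 5 (26.2%) and Th17 in Control 6 (21.7%). In UUO 1 and UUO 2 the remaining T cells stood at 2.10% and 6.20%, and in Controls 3 and 4 at 2.48% and 1.59%. Treg had the highest share of the 6 T cell classes in Controls 1, 2, 5 and 6 and in both UUO samples, and ranked 4th and 3rd in Controls 3 and 4. Outside the T cells, proliferating lymphocytes in Control 5 had 88 of 114 cells (77.2%) and neutrophils 156 of 201 (77.6%) at or above 10%, more than the 73.0% of Treg. In Control 6 these classes stood at 4.76% and 32.0%, below the 78.8% of Treg. Over all samples Treg made up 194 of the 458 T cells (42.4%) with at least 10% mitochondrial UMIs and 787 of the 5639 (14.0%) below that line. Classes were made from the same transcripts, so these contrasts between classes are given without a test.

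**Figure D2:**
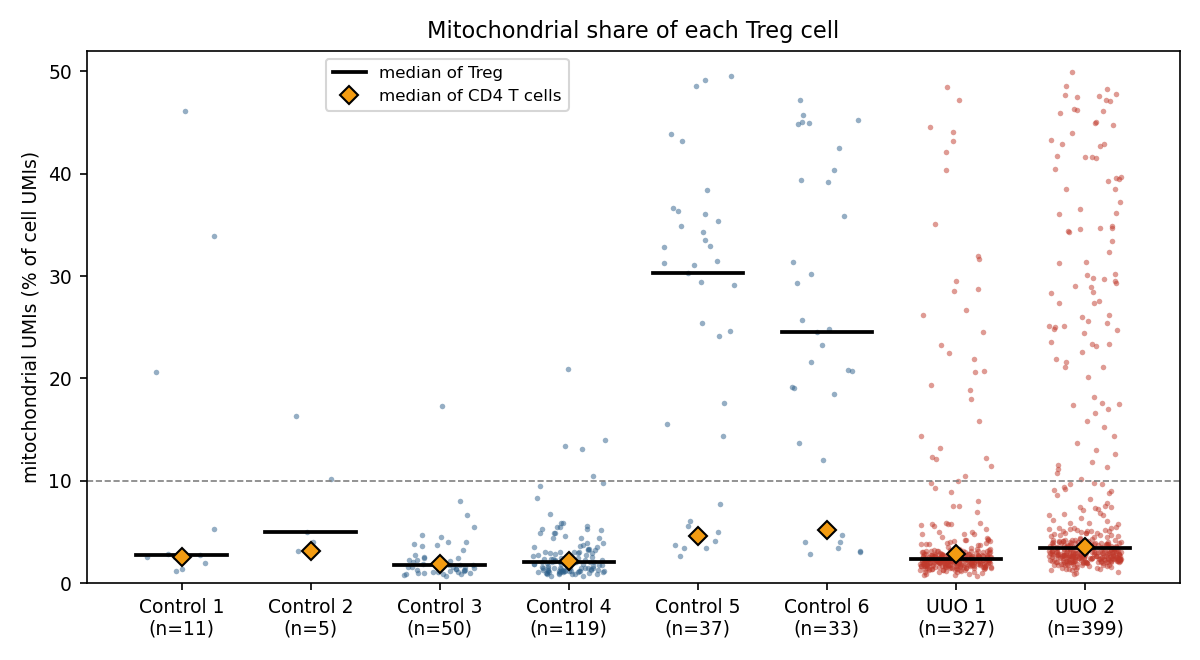
Percentage of mitochondrial UMIs (vertical axis) in every Treg cell, by sample, with Control cells in blue and UUO cells in red, spread sideways at random; black lines are the Treg medians, diamonds the medians of CD4 T cells in the same sample, and the dashed line is 10%. The Treg median stands at 30.3% in Control 5 and 24.6% in Control 6, and at or under that of Control 2 (about 5%) in the remaining samples.

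On the UMAP, which places cells with similar transcripts close together on axes without a unit, the class fell into a compact body and a separate strip. The median Treg position lay at -5.86 and -1.85, nearest to the medians of CD8 T cells (distance 1.44), Th17 cells, the interleukin-17-producing helper class (1.58), and NKT cells, which share traits of T and NK cells (1.67). CD4 T cells were at 2.69 and CD8 effector cells, the cytotoxic class, at 2.71. Distances from this median thinned out between 1.5 and 2, with 20 cells, against 89 cells between 1 and 1.5 and 87 between 2 and 2.5. A total of 129 Treg lay more than 2 units away, and 127 of them had at least 10% mitochondrial UMIs. The median position of these distant cells was -3.81 and -0.91. The Th17 median was the nearest to it, at a distance of 1.31, and the CD4 T median lay at 3.18, farther than from the Treg median. Of the distant cells, 2 lay more than 5 units away.

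The distant cells were found in both groups but not in all samples. Controls 5 and 6 held 15 of 37 (40.5%) and 13 of 33 (39.4%), UUO 1 and UUO 2 held 24 of 327 (7.34%) and 75 of 399 (18.8%), Control 1 held 2 of 11, and Controls 2, 3 and 4 held 0. The remaining 67 high-mitochondrial Treg lay within 2 units of the median, 12 of them in Control 5 and 13 in Control 6. The sample medians of position in samples with at least 20 Treg differed between the groups by 0.103 units (exact permutation p = 1.0 with n = 3 and 2, smallest possible 0.10), and by 0.401 units without Controls 3 and 4 (exact permutation p = 0.333, the lowest possible with 2 samples a group).

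Neighbouring cells on the UMAP show how closely the class lies together on the map. Class names and map were made from the same transcripts, so this is no independent measure of how distinct the class is. Among the 15 nearest cells of each Treg, 79.5% and 75.9% were Treg in UUO 1 and UUO 2, against 67.9% in the pooled Controls 3 and 4, 50.5% in Control 5 and 63.2% in Control 6. Both UUO samples lay above these Control samples, by 17.2 percentage points on average, which the exact permutation test did not separate (p = 0.20 with n = 3 and 2). Controls 1 and 2, with 11 and 5 Treg, fell under the minimum of 20 Treg and did not enter this comparison. They stood at 76.4% and 85.3%, so Control 1 lay between the UUO samples and Control 2 above both. Most Treg on the map came from UUO, which bears on this measure. Over all samples, CD8 T cells were the most frequent other class among the neighbours of Treg under 10% mitochondrial UMIs (9.28%), and CD4 T (13.5%) and Th17 cells (10.5%) among those of Treg at or above 10%. This order was not shared by all samples. In Controls 5 and 6, with 10 and 7 Treg under 10%, Th17 cells came first (15.3% and 12.4%) and CD8 T cells held 5.33% and 2.86%.

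**Figure D3:**
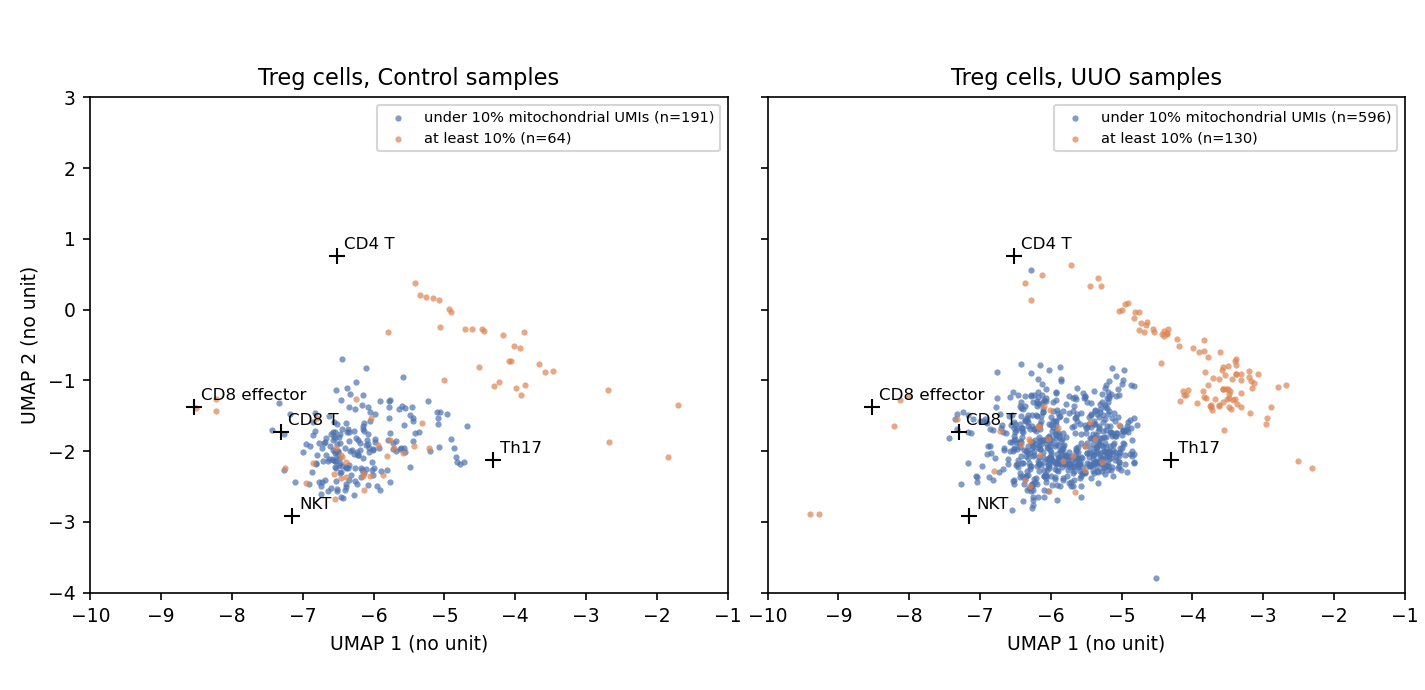
UMAP position of Treg (both axes without a unit) in the Control samples (left) and the UUO samples (right), blue for cells under 10% mitochondrial UMIs and orange for the rest; crosses mark the medians of the other T cell classes, and 2 Treg far from the rest lie outside the frame. Nearly all of the 129 cells more than 2 units from the Treg median are orange, 30 in Control and 99 in UUO.

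The numbers of Treg on each side of the 10% line are given as a description, since the line was chosen after Controls 5 and 6 were seen to lie mostly above it, which lowers their remaining share more than that of UUO. Treg under 10% numbered 10 in Control 5 and 7 in Control 6, or 0.0619% (exact 95% interval 0.0297 to 0.114) and 0.0513% (0.0206 to 0.106) of all cells. In UUO 1 and UUO 2 they numbered 294 and 302, or 1.60% (1.42 to 1.79) and 2.34% (2.08 to 2.61). The ratio of these means was 34.8, against 10.3 for the whole class in the same 4 libraries. With all 5 Control samples as counted, the ratio was 3.27 for Treg under 10% and 3.40 for the whole class. Controls 1 and 2 held 8 and 3 such cells, or 0.222% and 0.0466%, and the pooled Controls 3 and 4 held 163, or 2.62%, above both UUO samples.

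Treg at or above 10% differed in level between the obstructed kidneys. They made up 0.179% of the cells in UUO 1, between Control 5 at 0.167% and Control 6 at 0.190%, and 0.750% in UUO 2. In the libraries over 10000 cells the share of the whole class differed by 3.33 on the log2 odds scale (limma adjusted p 0.00233, with 25% of classes called higher). With 2 samples a group the lowest p an exact permutation test can give is 0.333.

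**Figure D4:**
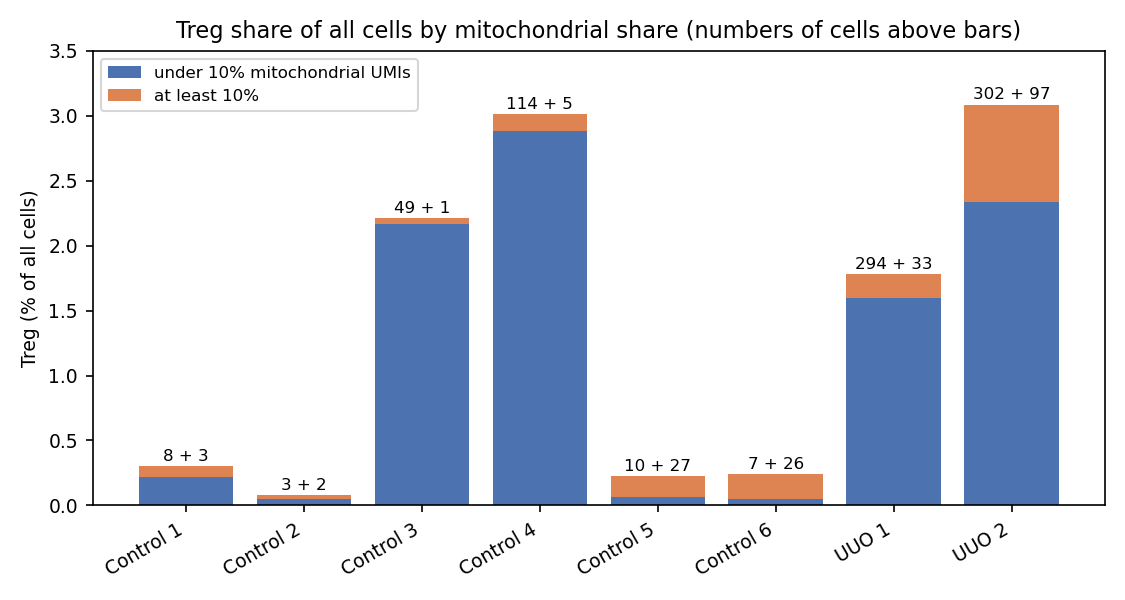
Treg as a percentage of all cells in each sample (bar height, from 0), divided into cells under 10% (blue) and at least 10% mitochondrial UMIs (orange), with the numbers of cells above each bar as under plus at least 10%. The bars of Controls 5 and 6 are mostly orange (27 and 26 cells), while those of UUO 1 and 2 are mostly blue (294 and 302 cells).

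Shares within the immune compartment do not depend on how many tubular cells were recovered. Treg made up 10.2% (exact 95% interval 9.18 to 11.3) and 10.7% (9.77 to 11.8) of immune cells in UUO 1 and UUO 2. Controls 1, 2, 5 and 6 stood at 3.68%, 1.78%, 4.35% and 4.65%, below both, and Controls 3 and 4 at 19.2% and 22.6%, above both. In Controls 3 and 4 Treg was the most numerous of the 15 immune classes. It ranked 4th in UUO 1, 2nd in UUO 2, 9th in Controls 1 and 5, 8th in Control 6 and 14th in Control 2. The log2 odds difference was 1.10 (95% interval -0.80 to 2.99) and did not pass (limma adjusted p 0.390; 0% of the 15 classes called, and 2 classes at an unadjusted p under 0.05). The outcome depended on Controls 3 and 4. Without them the difference was 1.68 (0.57 to 2.78, limma adjusted p 0.0305), with 26.7% of classes called higher. Here too the samples left out held the highest Control values, and n was 4 against 2.

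As a share of T cells, which leaves out every other leukocyte, the groups stood closer. They were 14.6% and 15.9% of T cells in UUO 1 and UUO 2. They were 10.0%, 5.68%, 11.5% and 11.3% in Controls 1, 2, 5 and 6, and 29.2% and 32.2% in Controls 3 and 4. The log2 odds difference was 0.34 (exact permutation p = 0.619 with n = 5 and 2). With Controls 3 and 4 as separate samples the mean percentage was higher in Control, at 16.7% (n = 6) against 15.3% (n = 2) in UUO. The log2 odds difference kept its sign in that setting. Without Controls 3 and 4 both UUO samples lay above all 4 Control samples, with a difference of 0.75 (exact permutation p = 0.133, smallest possible 0.0667). Among T cells under 10% mitochondrial UMIs, UUO 1 and UUO 2 held 13.6% and 13.2% Treg, against 3.98% in Control 5, 3.10% in Control 6, 7.62% in Control 1, 3.57% in Control 2 and 30.9% in the pooled Controls 3 and 4. The same filter took out most Treg of Controls 5 and 6 and a small part of their other T cells, so no test is given.

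Whether Treg moved differently from other lymphocytes was tested on the ratio of cell numbers within each sample, against the 8 other lymphoid classes. Against Th17 cells, the helper class named in the series title, there were 0.924 and 1.12 Treg per Th17 cell in UUO 1 and UUO 2. Controls 1, 2, 5 and 6 held 1.38, 0.455, 0.881 and 1.43, and the pooled Controls 3 and 4 held 3.38. The UUO values fell inside the Control range, with a log2 difference of -0.26 (exact permutation p = 0.667). The sign was positive without Controls 3 and 4 (0.10) and among cells under 10% mitochondrial UMIs (0.41), so no direction can be read from it. Treg per CD4 T cell was 0.347 and 0.498 in UUO, against 0.20, 0.119, 0.294 and 0.234 in Controls 1, 2, 5 and 6 and 2.52 in Controls 3 and 4 (log2 difference 0.28, exact permutation p = 0.810). Without Controls 3 and 4 both UUO samples lay above all 4 Control samples and the difference was 0.997 (exact permutation p = 0.133, smallest possible 0.0667).

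NKT and NK cells gave larger log2 differences than the helper and CD8 classes, though none of the 8 ratios passed its test. Treg per NKT cell was 2.10 and 1.66 in UUO 1 and UUO 2, against 0.786, 0.417, 0.569 and 0.733 in Controls 1, 2, 5 and 6 and 1.62 in the pooled Controls 3 and 4 (log2 difference 1.31, exact permutation p = 0.0952). The UUO values lay above these 5, but Control 4 taken by itself had 1.75 and lay between them. Treg per NK cell, the innate cytotoxic class, was 1.39 and 1.35 in UUO, against 0.846, 0.263, 0.638 and 0.611 in Controls 1, 2, 5 and 6 and 1.32 in the pooled Controls 3 and 4 (log2 difference 1.06, exact permutation p = 0.143). Here Control 4 by itself, at 1.47, exceeded both UUO samples. Without Controls 3 and 4 the log2 differences were 1.59 and 1.31, each at exact permutation p = 0.0667, the lowest that 4 samples against 2 can give.

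Ratios to CD8 T cells and to CD8 effector cells were close to level between the groups (0.07 and 0.02 on the log2 scale, exact permutation p = 0.905 and 1.0) and changed sign under several alternatives. Those to B cells, which make antibody, and to proliferating lymphocytes were 2.04 and 2.21 with wide Control ranges (exact permutation p = 0.476 and 0.286). Without Controls 3 and 4 the differences were 0.17 for CD8 T, 0.40 for CD8 effector, 3.33 for B cells and 3.04 for proliferating lymphocytes, with exact permutation p from 0.133 to 0.667. The pooled Controls 3 and 4 had 33.8 Treg per B cell against at most 0.943 in the other Control samples, a ratio that rests on 5 B cells. After Benjamini-Hochberg adjustment over the 8 ratios the lowest exact p was 0.571, and a pass would have needed all 8 at the smallest possible p.

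**Figure D5:**
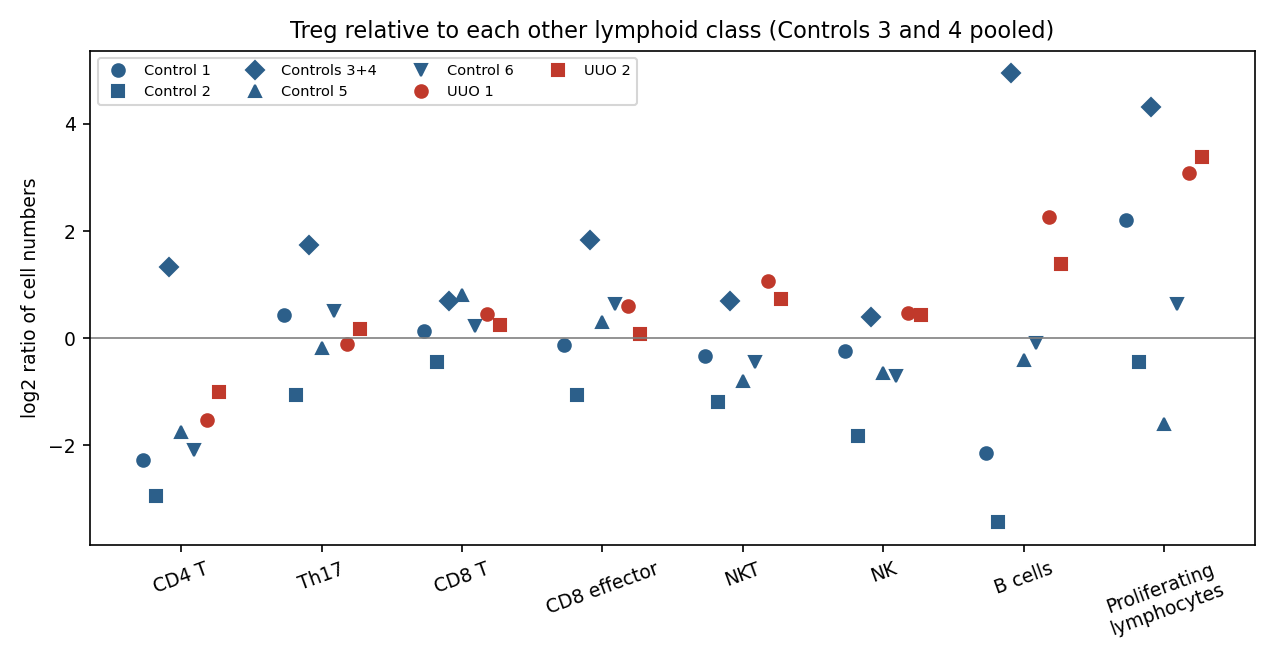
Log2 ratio of Treg to each other lymphoid class in the same sample (vertical axis), Control samples in blue and UUO samples in red. Controls 3 and 4 are pooled (diamonds), and each marker shape is a sample within its colour. A shape found in both colours does not mark a pair. A value of 0 means equal numbers. With Controls 3 and 4 pooled, the UUO samples lie above the Control samples for NKT and NK cells, and inside the Control range for Th17, CD8 T and CD8 effector cells.

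Treg of the obstructed kidneys held somewhat more transcripts. The median Treg carried 2219 UMIs in UUO 1 and 2531 in UUO 2, against 1782 in the pooled Controls 3 and 4, 2098 in Control 5 and 1649 in Control 6, and 1329 and 1600 in Controls 1 and 2 with under 20 Treg each. Both UUO samples were above every Control sample. The ratio in samples with at least 20 Treg was 1.29 (log2 difference 0.37, 95% interval -0.23 to 0.97) and did not pass limma (adjusted p 0.336; 10.5% of 19 classes called). Genes detected per Treg were 1007 and 1056 in UUO, against 864, 837 and 699 in the same Control samples (ratio 1.29, limma adjusted p 0.259; 5.26% called). With Treg under 10% mitochondrial UMIs alone and samples of at least 5 such cells, the ratios were 1.51 for UMIs (limma adjusted p 0.127; 7.69% of 26 classes called) and 1.38 for genes (limma adjusted p 0.154; 11.5% called).

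Library depth moves both of these measures, so CD4 T cells of the same sample served as a reference. The median Treg held 1.12 and 1.16 times the UMIs of the median CD4 T cell in UUO 1 and UUO 2, and 0.793, 1.02 and 1.13 times in Controls 3 and 4 pooled, Control 5 and Control 6. Control 6 reached the lower UUO value, and the log2 difference was 0.23, or 0.09 without Controls 3 and 4 (exact permutation p = 0.30 with n = 3 and 2, smallest possible 0.10). In cells of 1500 to 2500 UMIs and under 10% mitochondrial UMIs, the median Treg showed 979 genes in UUO 1 (147 cells) and 970 in UUO 2 (141 cells), against 905 in Control 3 (33 cells), 877 in Control 4 (73 cells) and 837 in Control 5 (5 cells). Median UMIs of these cells were 2022 and 1959 in UUO 1 and UUO 2 and 1944, 1871 and 1738 in Controls 3, 4 and 5, so the UUO cells were also the deeper ones within the window, and no test was made.

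High-mitochondrial Treg differed from the rest of the class in content as well. Over all samples their median was 2517 UMIs against 2121 in Treg under 10%, but 844.5 genes against 999. UMIs outside the mitochondrial transcripts were 1730.5 against 2070 over all samples and 1886 against 2146 in UUO 1, 1875 against 2318 in UUO 2 and 1307 against 1413 in Control 6. In Control 5 they were 1717 against 1667, so the order differed between samples. At 1500 to 2500 UMIs, UUO 1 and UUO 2 showed 776 and 779 genes in high-mitochondrial Treg, below the 979 and 970 of the remaining Treg. That window is set on total UMIs, of which a larger part is mitochondrial in these cells by the split itself. The gene numbers are therefore no separate difference from the mitochondrial share, and cells were not matched on their other UMIs. In Control 5 the median high-mitochondrial Treg held 2512 UMIs and in Control 6 it held 1730.5, against 1768 and 1483 in the cells under 10%. Of the 981 Treg, 41 had over 5000 UMIs, 10 of them with a high mitochondrial share. No doublet calling was done here.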

How the data were processed

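The deposited cell table gives, per the file headers, a sample name, a class name, UMIs, genes detected and mitochondrial percent for each cell. UMIs and genes are raw counts per cell made by the authors, and the mitochondrial share is a percent of UMIs, per the file headers. The deposited UMAP table gives coordinates, a score without a unit, for 25200 cells including all 981 Treg. Cell Ranger 6.0.1, Seurat 4.0.1 and build mm10 are named in the submitters' processing notes, without their roles; how cells were filtered and classes called is not stated. The table holds no cell outside 298 to 2998 genes or above 50.0% mitochondrial UMIs. Columns left out numbered 0.

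Samples were grouped by title. Shares were put on the scale log2((n + 0.5)/(N - n + 0.5)) and fitted over all 28 classes, or the 15 immune classes, with limma 3.58.1 in R 4.3.3 (Benjamini-Hochberg adjustment, threshold 0.05). T cells were the classes CD4 T, Th17, Treg, CD8 T, CD8 effector and NKT. Medians per sample needed at least 20 cells of a class. Single values were compared by two-sided exact permutation tests at an unadjusted p of 0.05. Depth was 4375942 to 56755823 UMIs per sample, and binomial intervals cover counting error only. Alternatives included edgeR 4.0.16 on cell numbers. The fit was checked on simulated data. The members, lists and tests were chosen with earlier results of these data known, and the line at 10% mitochondrial UMIs as a division of Treg, with the comparisons built on it, after the data were seen. The text names Treg and the other lymphoid classes by rule.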

Additional observations from a re-analysis of the deposited data

Results flagged for a closer look

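Controls 3 and 4, pooled as 1 sample, stood far from the other 4 Control samples in 7 of the 13 Treg measures examined for a sample apart from its group, where chance flags about 1 in 20. Treg were 2.72% of all cells there against 0.0777% to 0.306% in the others, 21.5% of immune cells against 1.78% to 4.65%, and 31.2% of T cells against 5.68% to 11.5%. Treg under 10% mitochondrial UMIs were 2.62% of all cells against 0.0466% to 0.222%. There were 2.52 Treg per CD4 T cell against 0.119 to 0.294, 33.8 per B cell against 0.0847 to 0.943, and 21.1 per proliferating lymphocyte against 0.325 to 5.50. The last 2 ratios rest on 5 B cells and 8 proliferating lymphocytes in Controls 3 and 4. These measures share the same 169 Treg and are not independent of each other.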

How the results depend on the processing

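The rise in Treg share of all cells (2.83 on the log2 odds scale with limma) kept its direction under every alternative run and lost its call under 6: the exact permutation test (2.83, p = 0.190), edgeR with sample totals (1.77, adjusted p 0.0749) and with TMM scaling (1.81, adjusted p 0.105), an arcsine square root scale (0.086, adjusted p 0.0825), and limma without UUO 1 (3.24, adjusted p 0.0632) or without UUO 2 (2.42, adjusted p 0.123). Leaving out each sample in turn gave 2.34 to 3.24, where a lone UUO sample was assumed to vary like the other groups. The share of immune cells passed limma without Controls 3 and 4 (1.68) and among libraries over 10000 cells (1.29). Leaving out Treg of at least 10% mitochondrial UMIs as well gave 3.02, a value that the filter itself raises, since it was chosen after seeing the data and removes most Treg of Controls 5 and 6. Median mitochondrial percent passed without Controls 3 and 4 and among libraries over 10000 cells (-24.5 in both). For Treg both settings compare Controls 5 and 6 with UUO 1 and UUO 2.

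Control and UUO share the numbers 1 and 2, and the labels state no pairing. Deviations of same-numbered samples had correlations of -0.25 and -0.004. With only 2 UUO samples the opposite pairs give the same values with the sign changed. The correlations therefore cannot decide whether samples were paired. With the number as a replicate block the share of all cells was 3.86 (limma adjusted p 0.0169) and that of immune cells 2.06 (limma adjusted p 0.0070). In that fit only Controls 1 and 2 share a number with a UUO sample, so both differences rest on them. Controls 1 and 2 hold 11 and 5 Treg, and the other Control samples do not enter these differences. Medians could not be fitted with the block, as Controls 1 and 2 hold under 20 Treg each. For the same reason Controls 5 and 6 dropped out of the medians of cells under 10% mitochondrial UMIs, which then gave no value at a minimum of 20 cells.

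Of the ratios, Treg to CD4 T was -0.18 with 8 separate samples, -0.073 to 0.54 with a sample left out and 0.997 without Controls 3 and 4. Treg to Th17 was 0.10 without Controls 3 and 4 and 0.41, 0.30 and 0.18 among cells under 10%, 5% and 20% mitochondrial UMIs, the last 2 chosen after seeing the data. Treg to CD8 T was -0.17 among libraries over 10000 cells, -0.079 in cells of at least 1000 UMIs and -0.12 to 0.20 with a sample left out. Treg to CD8 effector was -0.30 with 8 separate samples, -0.13 among libraries over 10000 cells, -0.013 in cells of at least 1000 UMIs and -0.33 to 0.28 with a sample left out. Treg to NKT reached 1.36 (exact permutation p = 0.0476, unadjusted) without Control 4. The cause of these changes was not tested. The 5 to 50 Treg in 5 of the 6 Control samples limit every Control value.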
